A study of Drosophila melanogaster with 6 samples.

Results

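The genes described here are the core of the JAK-STAT pathway of Drosophila melanogaster, namely upd1, upd2, upd3, dome, et, hop, Stat92E, Socs36E and Ptp61F, and the data are the places where the protein Dwg was found on chromatin at them. The genes were chosen by name for their role in the pathway, with earlier results of these data known. They are 9 of 13945 protein-coding genes annotated on 6 chromosome arms. Chromatin came from cells of the embryonic Drosophila line S2R+ in which Dwg was expressed with a Flag tag, and the series holds 2 libraries of chromatin precipitated for Flag-Dwg, 2 libraries made with a control IgG antibody and 2 libraries of input chromatin that was not precipitated. Dwg, also known as Zw5, is a zinc finger protein of chromatin insulators, the elements that keep an enhancer from acting on the wrong promoter. No treatment of the cells is named in the labels, and the positions are those of the tagged form. The antibody label of the input libraries also names dwg1, although their titles call them input, and the titles were followed.

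The values are 2 lists of summits, the single bases at which the enrichment of Flag-Dwg chromatin over a control was highest. A list of 10950 summits was called against the IgG libraries and a list of 12971 against input. Each summit carries a score, the −log10 of the q-value of the peak caller, which ran between 1.31 and 905 in the list against IgG and between 1.30 and 2448 in the list against input. Scores move with read depth and with the control, so a score is read here by its rank within its own list, where rank 1 is the highest. Neither list holds values of single libraries, so no error over replicates can be given, the depth behind a summit is unknown, and all counts below are descriptions without a test.

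JAK-STAT signaling carries a message from outside the cell to its genes in few steps. Unpaired cytokines bind the receptor dome, the receptor-bound Janus kinase hop then phosphorylates the transcription factor Stat92E, and Stat92E enters the nucleus and binds its target genes. Targets such as Socs36E in turn dampen the pathway, which in flies is known for its part in blood cells, stem cell niches, the gut and the response to infection.

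A summit against IgG lay within the gene or 1000 bp around it at 7 of the 9 genes (77.8%), where 52.1% of all protein-coding genes had one. The 7 genes were dome, et, hop, Stat92E, Socs36E, Ptp61F and upd3. The ligand genes upd1 and upd2 had none in either list. Longer genes hold summits more often, and among genes of like length the share with a summit against IgG was between 58.5% and 67% for the length classes of the 9 genes, where all genes were divided by length into 10 classes of equal size. Against input the same 7 of 9 genes had a summit, beside 55.5% of all genes. A position present in both lists, with the summits at most 100 bp apart, was found at 6 of 9 genes, all of these but upd3, beside 50.1% of all genes. With so few genes, shares of this size are given as counts and not as a difference from the background.

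The 9 genes differed more from each other than this count shows. Only dome, Stat92E, Socs36E and Ptp61F reached a score of 20 or more against IgG, while the highest summits of et, hop and upd3 had scores below 10. Of all protein-coding genes, 31.8% reached a score of 20. The median of the highest score per gene against IgG was 35.0 over the 7 genes with a summit, beside 29.7 over the 7259 protein-coding genes with one. Against input it was 114 over 7 genes, beside 59.7 over 7743. A gene with many summits has more scores from which its highest is taken, and genes of like length were not compared. Over single summits at the listed genes the median score was 12.3 against IgG, beside 12.9 over that whole list. Against input it was 20.2, beside 20.9. Most summits fell on the longest genes, with 12 at Ptp61F (133 kb), 10 at Socs36E (13.7 kb) and 6 at Stat92E (17 kb) of 32 in all against IgG. A score of 20 was reached by 9 of the 32 summits against IgG (28.1%), beside 36.4% of that whole list, and by 22 of the 41 against input (53.7%), beside 51.1%.

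**Figure D1:**
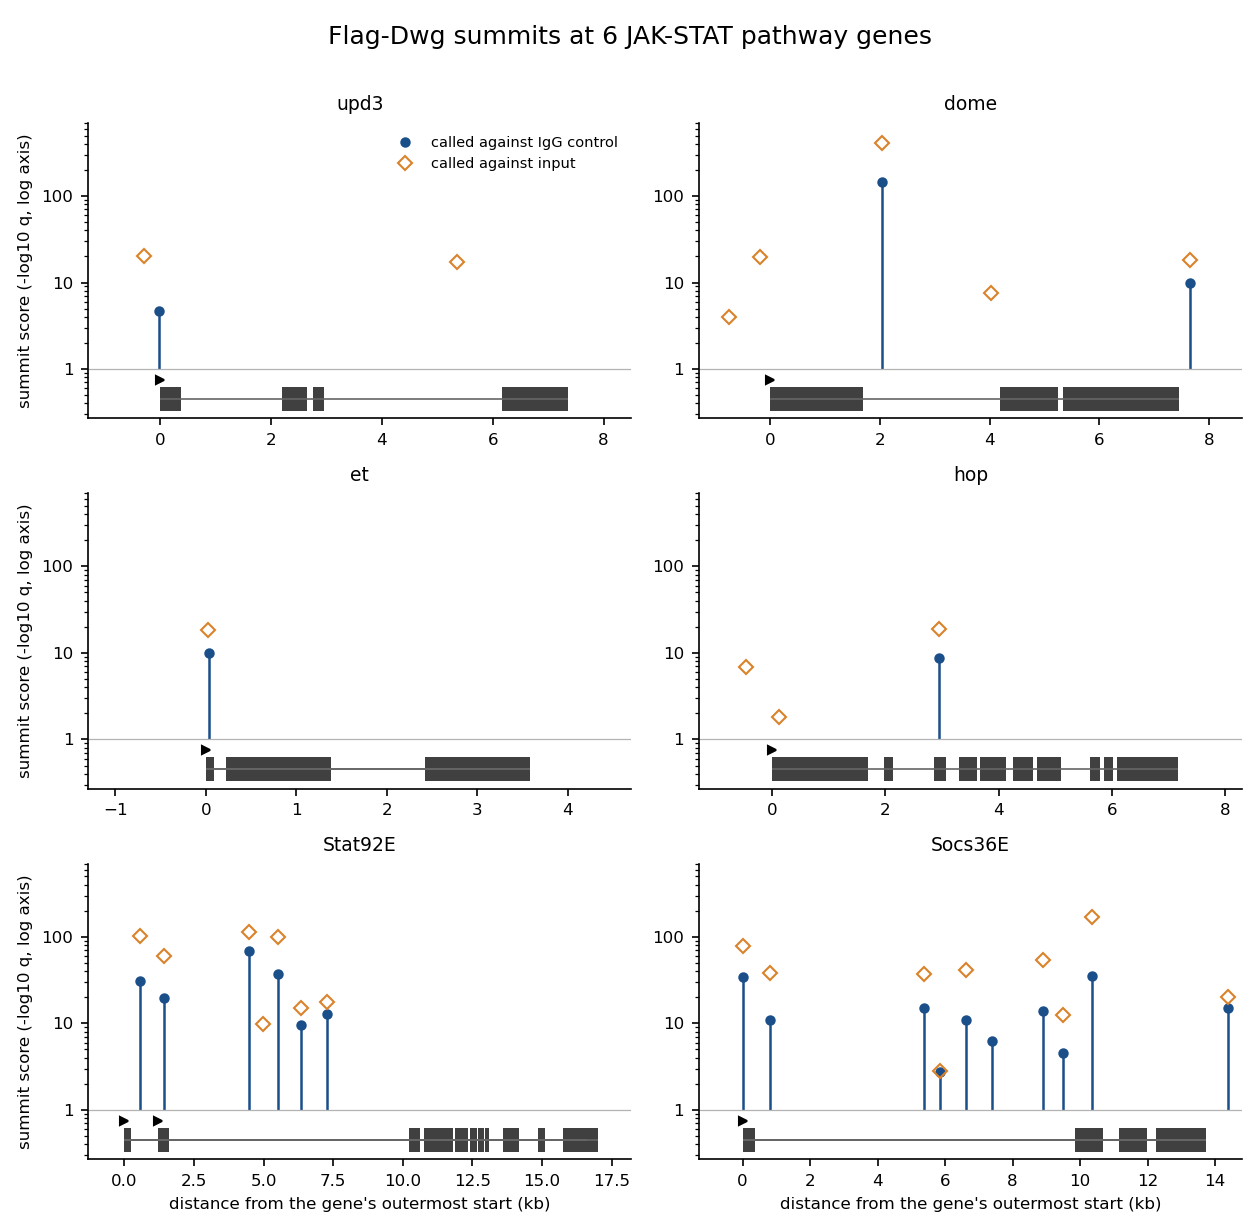
Summits at 6 JAK-STAT genes, with the score (−log10 q, log axis) against the distance from the outermost transcript start in kb. Blue stems are summits against IgG, open orange diamonds summits against input, black boxes the exons of all transcripts and triangles the transcript starts. The highest point is the dome summit in the first intron, with a score of 144 against IgG and 408 against input, and Stat92E and Socs36E carry rows of summits along their first introns.

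Among the ligands, which are secreted proteins distantly related to the interleukin 6 family, upd3 alone had a summit. The gene lies on the plus strand of the X chromosome (FBgn0053542, 18277233 to 18284596), and its summit against IgG was 10 bp upstream of the start, at 18277223, with a score of 4.68 and rank 8954. Against input no summit lay within 100 bp of this position. The nearest was 293 bp upstream of the start, with a score of 20.2 and rank 6607, and a further one lay in intron 3 of 3, with a score of 17.4. A stronger summit of both lists stood 1320 bp upstream of upd3, outside the window, with a score of 17.3 (rank 4461) against IgG and 35.6 (rank 4676) against input. The summit at the start of upd3 is thus weak and present in 1 list only. The 60 bases that end just before the upd3 start (chrX:18277173-18277232, dm6, plus strand) hold this summit near their right end and are shown because it is the sole summit against IgG in the window of a ligand gene. Capitals mark a GAGA element, read here on the other strand as CTCTC.
upd3 summit: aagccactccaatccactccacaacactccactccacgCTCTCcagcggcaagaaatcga

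The other ligands, upd1 (FBgn0004956, 18305354 to 18309291) and upd2 (FBgn0030904, 18240654 to 18243284), lie on the minus strand of the same stretch of the X chromosome. The nearest summit to upd2 was 3.92 kb upstream of its start, with a score of 2.14 (rank 10503) against IgG and 12.9 (rank 8346) against input. For the 3 starts of upd1, the nearest summit against IgG was 31 to 32.1 kb away, and it was the one at the upd3 start. The nearest against input was 16 to 17.1 kb from these starts, with a score of 3.22 (rank 12134). The upd cluster as a whole, 68.6 kb with 4 protein-coding genes, held 4 summits against IgG and 7 against input. The whole X arm averaged 7.74 and 9.77 summits per 100 kb in these lists. That is a longer stretch than the cluster, so the counts cannot be set directly beside these averages. All 4 summits against IgG lay nearest to the start of upd2 or upd3. Beyond the cluster, the next summits against IgG stood at the starts of other genes, 61.8 kb past upd1 near CrebB, the gene of a cAMP response transcription factor, and 63.1 kb past upd2 near Frq2, the gene of a calcium sensor of neurons.

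The receptor gene dome (FBgn0043903, X chromosome, 19676061 to 19683518, minus strand) held the highest summit of the whole set. It lay at 19681472, in intron 1 of 2 and 2046 bp past the only start, and it scored 144, rank 500, against IgG. Against input the summit was 1 bp away, with a score of 408 and rank 378. Of all genes with a summit against IgG, 12.5% had a higher one. No summit against IgG lay within 250 bp of the dome start, and the list against input placed 1 there, 189 bp upstream, with a score of 19.9. That position is closer still to the start of Ubqn, a ubiquilin gene, so it cannot be given to dome alone. Input also called a summit of 7.63 in intron 1 of dome and one of 3.98 inside Ubqn.

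The bases around the dome summit are shown because this is the strongest position at the 9 genes (chrX:19681422-19681522, dm6, plus strand, summit at the middle base). Capitals mark the sequence CGCCGC, the 6-base word that was most raised at summits away from the 9 genes, and the TTC and GAA arms of a Stat92E site with a spacer 1 base longer than the usual one.
dome summit: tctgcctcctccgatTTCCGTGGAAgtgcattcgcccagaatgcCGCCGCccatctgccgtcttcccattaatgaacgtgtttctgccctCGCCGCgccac

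The gene et, a short relative of dome whose product dampens signaling, lies next to it on the same strand (FBgn0031055, 19672312 to 19675891). Its summit was at 19675858, in the 5′ UTR at 33 bp past the start, and it had a score of 9.90 and rank 6415 against IgG and 18.4 and rank 6982 against input. The same summit lies 203 bp past the end of dome and falls into the window of both genes, and it was counted once. By distance to a start it belongs to et. The summit has a GAGA element 17 bp from it.

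The kinase gene hop (FBgn0004864, X chromosome, 11360930 to 11368098, minus strand) had 1 summit against IgG. It lay at 11365158, in coding exon 3 of 10 and 2940 bp past the start. It scored 8.84, rank 6854, and lay at the same base against input with a score of 18.7 and rank 6899. Of all genes with a summit against IgG, 81.9% had a higher one. The start of hop had no summit against IgG within 1000 bp, and the nearest stood 1526 bp upstream with a score of 17.7. Against input there were 2 more in the window, a weak one in the 5′ UTR (score 1.82, at 116 bp past the start) and one 463 bp upstream (score 6.80), inside Tim8, a gene for import into mitochondria. The hop window is shown as an example of a summit in coding sequence, in which none of the searched motifs was found (chrX:11365108-11365208, dm6, plus strand).
hop summit: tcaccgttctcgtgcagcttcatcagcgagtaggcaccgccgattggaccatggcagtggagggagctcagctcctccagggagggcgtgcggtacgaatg

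Stat92E, the only STAT of the fly, had 6 summits against IgG, all inside the gene (FBgn0016917, 3R, 20535323 to 20552311, minus strand). The gene has 11 annotated transcripts from 2 starts, an outer one at 20552311 with 5 transcripts and an inner one at 20551107 with 6. No summit lay within 250 bp of the outer start. The summit at 20551758 was 553 bp downstream of it, in the first intron of the outer transcripts and upstream of the inner ones, with a score of 30.7 (rank 2870) against IgG and 103 (rank 1960) against input. The summit at 20550898 was 209 bp downstream of the inner start, in the 5′ UTR of the inner transcripts and still in the first intron of the outer ones, with a score of 19.9 (rank 4008) against IgG and 60.4 (rank 3124) against input. Both starts thus had a summit on their downstream side.

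The other 4 Stat92E summits formed a group in the long first intron that all 11 transcripts share. They lay at 20547847, 20546781, 20545956 and 20545045, between 3260 and 6062 bp downstream of the inner start and 1066, 825 and 911 bp from one to the next. Their scores against IgG were 68.1 (rank 1278), 37.4 (rank 2379), 9.62 and 12.8, and those against input were 114, 100.8, 15.2 and 17.5, so the pair nearer to the starts was the stronger in both lists. The list against input added a summit of 9.94 between them, at 20547326. In the length class of Stat92E, 14.3% of genes had at least as many summits against IgG, as did 2.49% of all genes. The window of the highest Stat92E summit is shown as the strongest position in the gene of the transcription factor itself, and none of the searched motifs was found in it (chr3R:20547797-20547897, dm6, plus strand).
Stat92E summit: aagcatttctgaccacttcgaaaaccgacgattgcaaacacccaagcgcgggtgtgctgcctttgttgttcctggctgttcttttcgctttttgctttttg

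Socs36E, a target of Stat92E whose product feeds back on the receptor complex, had 10 summits against IgG, 9 of them inside the gene (FBgn0041184, 2L, 18138675 to 18152417, minus strand, 13.7 kb). In its length class, of 6458 to 14581 bp, 0.359% of genes had at least as many, as did 0.48% of all genes. The gene lies near the long end of this class. In the next class, of 14601 bp and more, the 90th percentile was 7 summits and the 99th was 15. Against input there were 9, and 1.51% of the class and 1.17% of all genes had at least as many. Socs36E thus ranked high by the number of its summits and not by their height, since 45.4% of all genes with a summit against IgG had a higher one.

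All 3 Socs36E transcripts share 1 start, and a summit lay 9 bp downstream of it in the 5′ UTR (18152408), with a score of 34.6 (rank 2585) against IgG and 78.8 (rank 2492) against input. The highest summit was 10359 bp downstream of the start, in coding exon 2 of 4 (18142058), with a score of 35.0 (rank 2547) against IgG and 169 (rank 1180) against input. Against IgG these 2 summits were nearly equal. The ratio of the input score to the IgG score, 4.83 here, was the largest of the 28 summits that the lists share at these genes. Intron 1 held 7 more summits against IgG with scores between 2.75 and 15.0, of which 6 were also called against input with scores between 2.85 and 54.4, and the one at 18145036 (score 6.24) was not. The last of the 10 summits (18138037, score 15.0) lay 638 bp past the gene's end and 46 bp from the start of kel, the gene of the ring canal protein Kelch, and it counts for Socs36E only through the window. Of the 10 summits, 5 lay nearer to the start of kel than to that of Socs36E.

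The exon 2 summit is shown first (chr2L:18142008-18142108, dm6, plus strand), and then the summit in intron 1 that lies 800 bp downstream of the start (chr2L:18151567-18151667, score 11.0 against IgG and 37.8 against input), because it stands beside a row of Stat92E sites. In the exon window capitals mark the BEAF-32 core on the other strand (TATCG) and the Stat92E arms with the longer spacer, and in the intron window a GAGA element (GAGAG).
Socs36E exon summit: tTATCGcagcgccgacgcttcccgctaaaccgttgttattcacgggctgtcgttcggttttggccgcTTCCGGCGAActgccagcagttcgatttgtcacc
Socs36E intron summit: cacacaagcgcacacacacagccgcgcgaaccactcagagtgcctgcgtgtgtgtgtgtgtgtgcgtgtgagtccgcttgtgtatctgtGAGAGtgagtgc

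Stat92E binds the palindrome TTCNNNGAA, where N is any base, and a piece of the first intron of Socs36E with such sites is the base of a STAT reporter in wide use. Over the gene and 1000 bp around it, Socs36E held 20 of these letters, 1.27 per kb, beside 0.319 per kb over the 6 arms. This was rank 1 of the 1394 genes in its length class, whose median was 0.287 per kb, and rank 111 of all 13945 genes. Stat92E held 9 (0.474 per kb), dome 5 (0.529 per kb), hop 3 (0.327 per kb) and Ptp61F 51 (0.378 per kb), while the ligands held 0 at upd1, 1 at upd2 and 2 at upd3, and et held 1. The Flag-Dwg summits of Socs36E did not sit on these letters, since the nearest site was 57 bp from a summit and none was within 50 bp, while 5 of the 20 were within 250 bp. The numbers to be met by position alone were not computed, so neither avoidance nor closeness can be read from these counts.

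The stretch of 300 bases beside the intron summit holds 4 of the 20 sites, in capitals, and lies 426 to 725 bp downstream of the Socs36E start (chr2L:18151692-18151991, dm6, plus strand). No summit was inside it, and the nearest was 75 bp from its edge. It is shown because these 4 sites follow each other next to a summit.
Socs36E intron sites: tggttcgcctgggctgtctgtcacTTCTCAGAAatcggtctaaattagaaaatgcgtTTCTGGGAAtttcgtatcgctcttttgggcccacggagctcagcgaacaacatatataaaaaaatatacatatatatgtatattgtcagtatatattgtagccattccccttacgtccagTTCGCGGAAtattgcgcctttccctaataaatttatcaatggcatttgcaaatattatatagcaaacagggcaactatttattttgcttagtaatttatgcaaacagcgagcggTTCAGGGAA

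**Figure D2:**
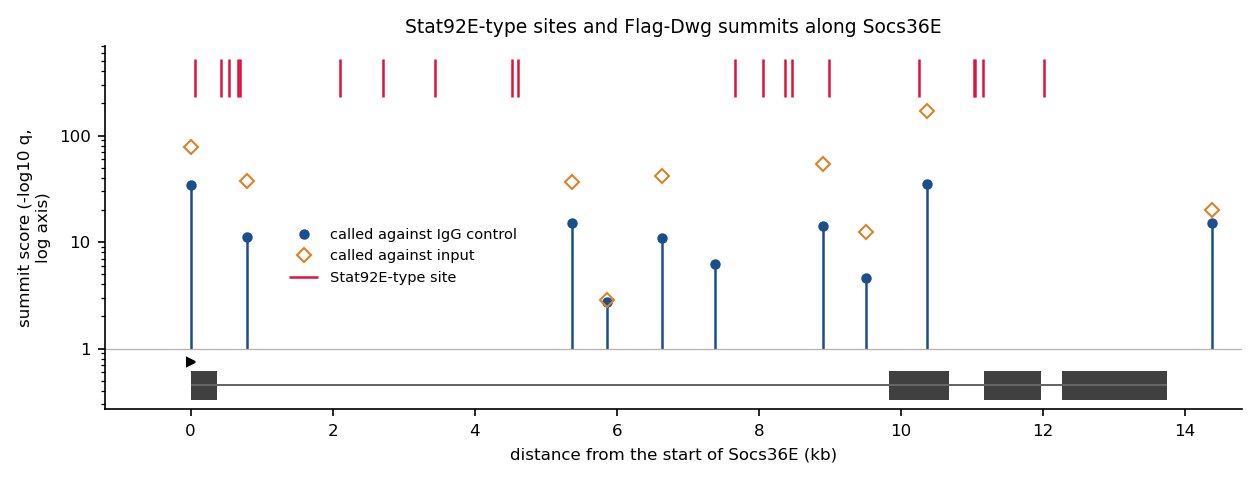
Socs36E with the score of each summit (−log10 q, log axis) against the distance from the start in kb, summits against IgG as blue stems and against input as open diamonds. The 20 Stat92E-type sites are red ticks at the top, and of the 10 blue stems none stands within 50 bp of a tick.

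Ptp61F, a tyrosine phosphatase that restrains the pathway, is by far the longest of the 9 genes (FBgn0267487, 3L, 1342493 to 1475257, minus strand, 133 kb) because of its long transcripts RE and RC. It had 12 summits against IgG and 15 against input. In its length class 2.51% of genes had at least as many against IgG, but the 12 summits came to 0.089 per kb, the lowest value of the 7 genes with a summit, beside 0.635 per kb for Socs36E. The summits fell into groups.

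The strong group lay in and around the end that all 5 transcripts share. The highest, at 1347362, lay in intron 1 of the 4 shorter transcripts and intron 3 of RE, 2180 bp downstream of the nearest start, with a score of 95.9 (rank 841) against IgG and 233 (rank 819) against input. In the same intron stood summits of 16.0 and 11.8 against IgG, 1388 and 964 bp downstream of that start. The start of RA and RB had a summit 167 bp downstream, in coding exon 1, with a score of 7.18 against IgG and 29.4 against input. The second highest, at 1342268 (65.8, rank 1325, against IgG, and 141, rank 1438, against input), lay 225 bp past the end of Ptp61F, inside the neighbouring gene indra and 103 bp from an indra start. A summit of 23.1 at 1351213 lay 97 bp from the start of CG9166. The 2 highest summits of Ptp61F thus stood in an intron and past its end, and the summit at its own start was weaker than both.

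The rest of the gene is the long upstream part, where other genes lie inside the introns of RE and RC. The 6 summits against IgG there had scores between 2.55 and 18.4, and none lay nearest to a start of Ptp61F. Of these, 4 were nearest to ru, the gene of a rhomboid protease, 1 to CG9168 and 1 to FucTD, a fucosyltransferase gene. In this part 5 summits were called against input alone. Of these, 3 were nearest to ru, with scores of 6.58, 1.33 and 7.09, and 2 to rho, the gene of another rhomboid protease of EGF signaling, with scores of 2.26 at 164 bp upstream of its start and 8.69 at 887 bp downstream. The outermost start, that of RE, had its nearest summit against IgG 14.4 kb upstream, and that of RC had it 9.73 kb downstream. The window of the highest Ptp61F summit is shown because it is the second highest position of the 9 genes, and none of the searched motifs was found in it (chr3L:1347312-1347412, dm6, plus strand).
Ptp61F summit: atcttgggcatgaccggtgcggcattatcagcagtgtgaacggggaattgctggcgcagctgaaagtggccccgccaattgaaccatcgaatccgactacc

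**Figure D3:**
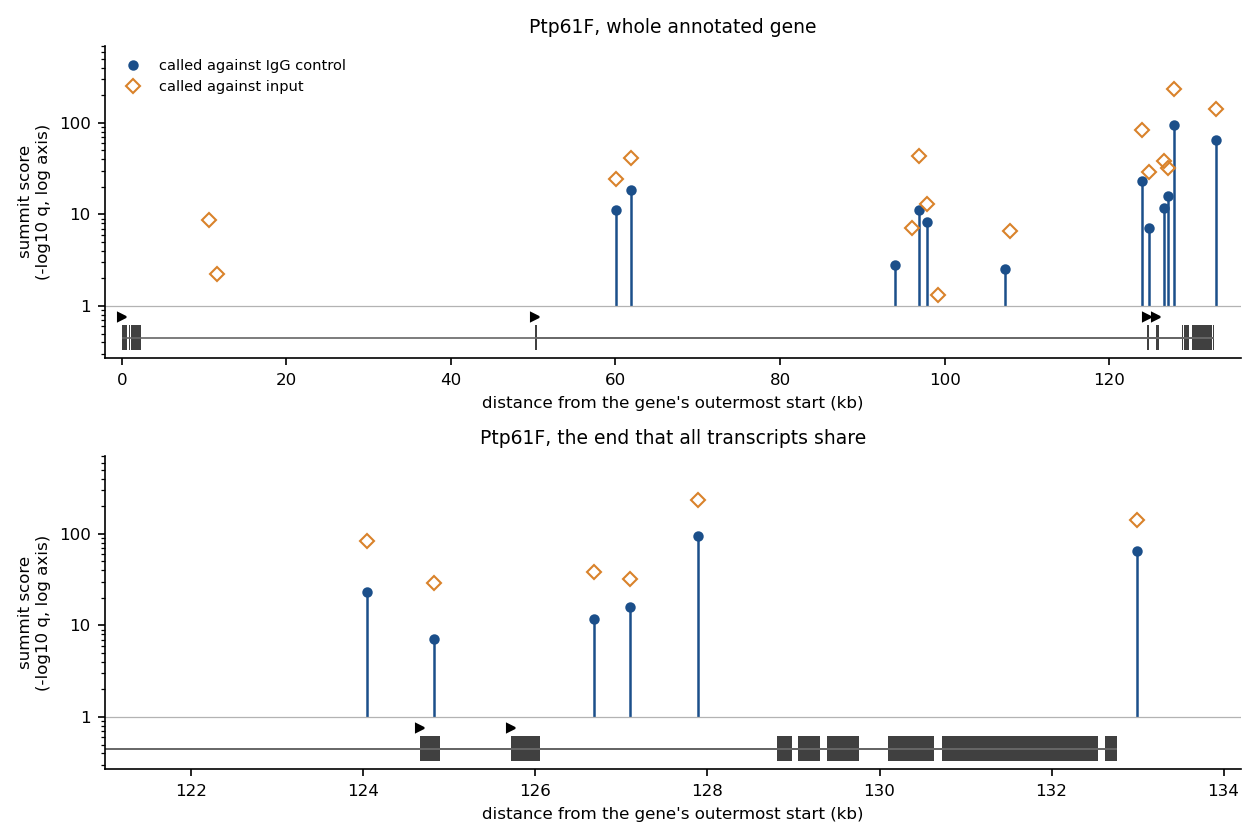
Summits along Ptp61F, with the score (−log10 q, log axis) against the distance from the outermost start in kb, for the whole gene above and for the end that all transcripts share below. Blue stems are summits against IgG, open diamonds summits against input, black boxes exons and triangles starts, and the 2 tallest stems, 95.9 and 65.8, stand in an intron and past the gene's end.

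The number of summits is set beside gene length in the plot of summit number and length. Socs36E had 10 summits in 13.7 kb and Stat92E 6 in 17 kb, while dome had 2 in 7.46 kb and hop 1 in 7.17 kb.

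**Figure D4:**
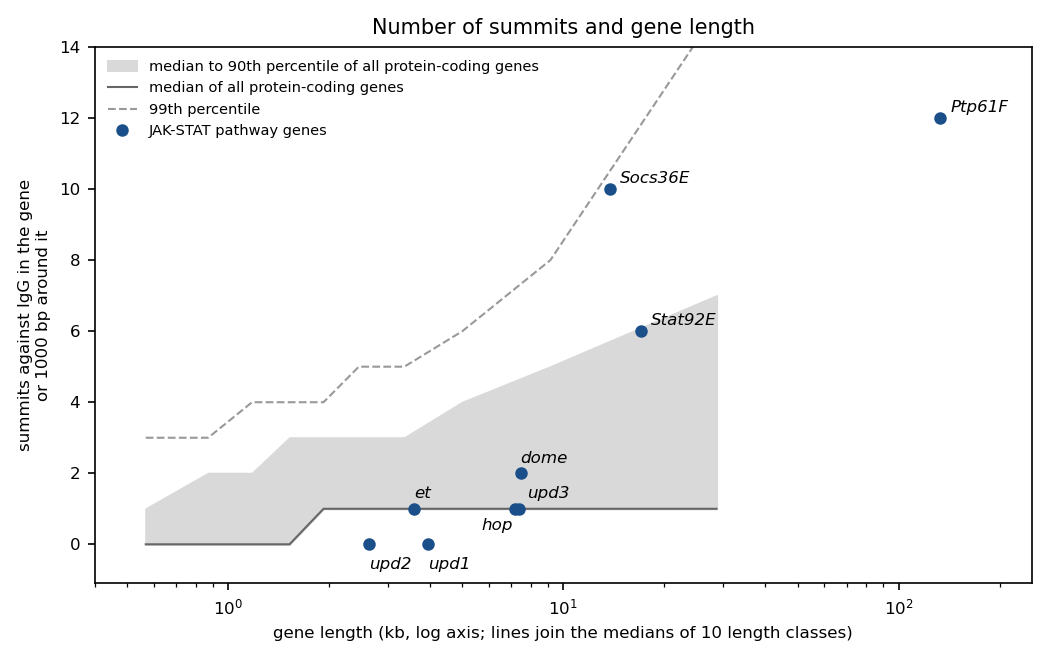
Number of summits against IgG within the gene or 1000 bp around it, against gene length in kb (log axis). Blue points are the 9 genes, the line and the grey band are the median and the range up to the 90th percentile of all protein-coding genes in 10 length classes, and the dashed line is the 99th percentile. Socs36E, with 10 summits, stands close to the dashed line, which joins the values of the classes, while the 99th percentile of its own class was 8. The genes upd1 and upd2 stand at 0.

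Over the 7 genes with a summit, the 32 summits against IgG lay mainly in introns. There were 23 in an intron, in each case the first intron of at least 1 transcript, 3 in a 5′ UTR, 3 in a coding exon, 1 upstream of a gene and 2 past a gene's end. Of the 23, 10 were at Ptp61F, 7 at Socs36E, 5 at Stat92E and 1 at dome. These places refer to the transcripts of the listed gene alone. At Ptp61F the intron summit at 1351213 also lay inside CG9166, and those at 1377447, 1378397 and 1381285 lay inside ru. The share of all summits in introns was not counted, so no preference for introns can be read from these counts. Only 8 of 32 (25%) lay within 250 bp of any start of a protein-coding gene, beside 40.4% of all summits against IgG, and 20 of 32 (62.5%) lay more than 1000 bp from any start, beside 37.3% of all. These 32 were selected by lying within or near the listed genes, some of them long. The list of all summits was not selected by gene, so the shares are not for like stretches. For 13 of the 32 summits the nearest start was that of a gene outside the set.

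Seen from the starts, 5 of the 9 genes had a summit against IgG within 250 bp of a start (Stat92E, Socs36E, Ptp61F, et and upd3), beside 32.5% of all genes. The same 5 genes had one in the stretch 1000 bp upstream to 100 bp downstream of a start, beside 36.6% of all genes. The 9 genes have 15 distinct starts, and 5 of these had a summit against IgG within 250 bp and 6 had one against input, while 28.2% and 30.8% of all 19607 starts did. Within 100 bp it was 3 of the 15 starts, those of Socs36E, et and upd3. The starts of dome and hop were without a summit against IgG, although input called a summit 189 bp from that of dome and 116 bp from that of hop. The highest summits of dome, Stat92E, Socs36E and Ptp61F were 2046, 3260, 10359 and 2180 bp from the nearest start of their own gene. For Socs36E the summit 9 bp from the start was nearly as high against IgG, with 34.6 beside 35.0.

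Most positions against IgG were called against input too, with higher scores. Of the 32 summits against IgG, 28 (87.5%) were also called against input, beside 86.9% of all summits against IgG, and 24 of the 28 differed by at most 1 bp and all by at most 6 bp. The lists share the Flag-Dwg libraries, so this is not a repeat of the experiment. The score was higher against input at all 28, with a median ratio of 2.44 and a range of 1.04 to 4.83, and over all shared summits the median was 2.17. The 4 summits called against IgG alone had scores of 2.55, 2.84, 4.68 and 6.24, all low, and lay at Ptp61F (2 of them), upd3 and Socs36E. Of the 41 summits against input, 28 (68.3%) were also called against IgG, beside 73.3% of all summits against input. The other 13 were not called against IgG, and the highest of these was the summit of 20.2 upstream of upd3.

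**Figure D5:**
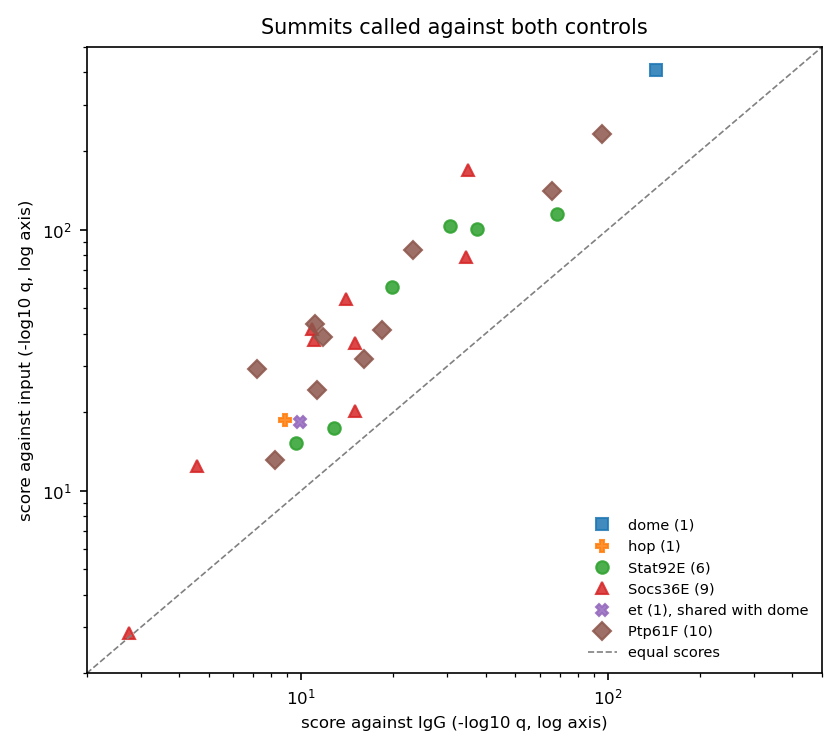
Score against input on the y axis against score against IgG on the x axis (both −log10 q, log axes) for the 28 summits that the lists share, with a symbol for each gene and a dashed line at equal scores. All points lie above the line, by a ratio between 1.04 and 4.83, and the dome summit stands at the upper right.

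Sequence motifs were searched on both strands in the window of 50 bases to each side of each of the 32 summits. TTCNNNGAA was found at 1 of 32 (3.12%), beside 2.08% of all 10950 windows and 3.27% of windows 350 bp to the side, and that 1 was the summit past the end of Ptp61F, with the site 2 bp from it. The form with a spacer 1 base longer was found at 3 of 32 (9.38%, at dome, Socs36E and upd3), beside 2.84% of all. GAGAG, bound by the GAGA factor, was found at 8 of 32 (25%), beside 14.9% of all. CGATA, the core of sites of the insulator protein BEAF-32, was found at 5 of 32 (15.6%), beside 12.9% of all, and the DRE TATCGATA, which contains CGATA, at 0 of 32, beside 0.731% of all. GGTCACAC, the core of the promoter element called motif 1, was found at 1 of 32 (3.12%), at the summit near kel, beside 2.25% of all. CGCCGC was found at 4 of 32 (12.5%), beside 12.5% of all windows and 4.42% of windows to the side. The windows had a median of 52.5% G and C (31.7% to 63.4%), the same as the 52.5% over all summits, while windows to the side had 40.6%. These are matches of letters in a window and the counts are small.

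A wider list set the 9 genes beside other genes tied to the pathway. It held 9 regulators (Su(var)2-10, ken, Socs16D, Socs44A, BRWD3, asrij, apt, lwr and smt3, which the annotation calls Sumo) and 10 target genes (chinmo, zfh1, TotA, TotC, TotM, slbo, Tep1, Tep2, crb and dpp). A summit against IgG was found within the gene or 1000 bp around it at 9 of 9 regulators and 4 of 10 targets, and the counts against input were the same. With all 19 genes together it was 13, beside 52.1% of all protein-coding genes, and 8 of the 19 reached a score of 20, beside 31.8% of all protein-coding genes. The regulators and targets were not matched for length. TotA, TotC and TotM, without a summit, are 0.593 to 0.665 kb long, and in this shortest length class 20.1% of genes had one against IgG. The other targets without a summit, Tep1, Tep2 and dpp, are longer, from 5.17 to 31.5 kb.

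Among the regulators, 6 reached this score, and 4 of these summits lay at the gene's own start. Su(var)2-10, the PIAS protein that holds STAT in check, had a score of 150.5 (rank 468) against IgG 6 bp downstream of its start. BRWD3, a bromodomain protein, had 174 (rank 391) at 192 bp downstream. The gene lwr, which encodes the enzyme that conjugates SUMO, had 123 (rank 592) at 77 bp downstream, and apt, a transcription factor that limits STAT activity in border cells, had 76.0 (rank 1127) at 25 bp upstream. For Sumo the score was 142 (rank 509), 952 bp from its start and past the gene's end. The ken window held the highest score of the wider list, 286 (rank 166), but the summit lay 90 bp from the start of TM4SF and 8144 bp from that of ken, a repressor related to BCL6, so it counts for ken only through the window.

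Of the targets, chinmo, a transcription factor of stem cell and neuron fate, had 10 summits against IgG, the highest 105 bp downstream of its start with a score of 57.7 (rank 1558). The target zfh1, a transcription factor needed in somatic stem cells of the testis, also had 10, the highest with a score of 33.5 (rank 2666) and 8133 bp upstream of the nearest zfh1 start. There were 6 of the 10 targets without a summit in the window.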

How the data were processed

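Flag-Dwg chromatin of S2R+ cells was sequenced in 2 libraries, with 2 IgG control and 2 input libraries. The authors trimmed reads with Trim Galore 0.6.4, mapped them to dm6 with Bowtie2 2.3.5.1, selected the unique ones in SAMtools 1.6, and ran MACS2 2.2.6 on read pairs for the peaks. The score in the 2 deposited summit lists is the authors' −log10 q-value, with a lower limit near a q of 0.05. The methods do not state whether replicates were pooled before calling. Peak widths, fold enrichments and coverage were not used here, and the lists hold no value or depth per library.

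Summits were assigned to genes of Ensembl release 115 on the same assembly within the gene or 1000 bp around it, placed per transcript, and matched between lists within 100 bp. The background was all 13945 protein-coding genes on 6 arms. Sequence came from the NCBI copy of the assembly (RefSeq), and windows with UTR bases were cut to the part outside or not shown. The assignment was tested on simulated data. Python 3.11.15, NumPy 2.4.6, pandas 2.3.3 and matplotlib 3.10.9 were used. Motif letters were searched on both strands, and the 6-base word was the one with the largest difference between summit windows away from the 9 genes and windows 350 bp to the side.

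The genes and lists were chosen with earlier results of these data known. Named were the 9 genes, genes of the wider list with a score of 20 or more against IgG, and any gene whose start was nearer to a summit. The alternatives were score thresholds of 5, 10 and 20, windows of 0, 500 and 2000 bp, assignment by start or nearest start, shared summits only, sharing distances of 50, 250 and 500 bp and start distances of 100, 500 and 1000 bp.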

Additional observations from a re-analysis of the deposited data

How the results depend on the processing

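The number of the 9 genes with a summit against IgG depended on the score threshold. It was 7 with all summits, 6 at a score of 5, and 4 both at a score of 10 and at a score of 20, where 41.2% and 31.8% of all protein-coding genes had one. The 32 summits against IgG came to 21 at a score of 10 and 9 at a score of 20 (28.1%, beside 36.4% of the whole list), and the 41 against input to 22 at a score of 20 (53.7%, beside 51.1% of the whole list), while the wider list had a summit at 8 of 19 genes at a score of 20 and at 13 of 19 without a threshold. Of the 15 starts, 3 had a summit against IgG within 100 bp, and 5 within 250 bp. The other 39 alternative counts stayed within a factor of 1.5 of the values given. With a window of 2000 bp the highest score against IgG became 17.7 for hop and 17.3 for upd3, and with the gene body alone upd3 had no summit against IgG. No paired analysis was possible because the summit lists carry no value per library, and for the same reason no library could be left out. The depth per library is unknown, so a gene without a summit is one where none was called at this depth.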
